A study of Mus musculus with 15 samples.

Results

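Whole-exome calls of somatic mutations in haematopoietic stem cells (HSCs) of old mice were examined in 5 genes known mainly from nerve, connective tissue or epithelium: Scn8a, Pcdhb5, Slc24a2, Col5a2 and Cyp2j6. Every call annotated to these genes was taken. They made up 5 of the 32 calls of the series and 9 of the 44 entries analysed, an entry being a call in a library. The values of 1 call made in both fractions, 2 of 46 entries, were not analysed, so statements on all entries cover the 44. The members were thus chosen by the presence of a call in a gene of that kind, and were proposed with their allele fractions already known, so the fractions are given as a description. Whether any of these mutations altered the growth of the cells that carried it was not measured, and neither was expression of the genes.

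The AThi libraries came from HSCs sorted as GFP-low (AThi, autophagy-engaging) and the ATlo libraries from HSCs sorted as GFP-high (ATlo, not engaging). Both were purified from the bone marrow of old mice at steady state, and tail DNA of the same animals served as the germline baseline. All mice carried Gfp-Lc3 on both alleles, a transgene that tags the autophagosome protein LC3 with GFP, whose signal is lost as autophagosomes are degraded; its promoter is not stated in the labels. Each of 5 mice gave 1 AThi, 1 ATlo and 1 tail library, where the stated design has 6 pairs. HSC pellets held about 10000 cells and were planned for a coverage of 150, and tail DNA for 30. There was 1 library per fraction and mouse, so no fraction below has a replicate. The files hold DNA calls only, so the labelled cell type could not be set against expression of its markers.

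A mutation that is heterozygous on an autosome and present in every cell of a sample is read on about 1 of every 2 molecules, an allele fraction near 0.5, and a mutation in only some of the cells lies lower. An inherited heterozygous variant also lies near 0.5, and the tail library is what tells it from a somatic one. With age some HSC clones can expand, and a mutation that the founding cell already carried is then found throughout its clone, whether or not the gene is used in blood. A mutation in a gene with no known role in blood can for that reason mark a clone, as can a mutation in any other gene. Whether the calls below mark clones was not tested.

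The 5 calls lay in 2 mice, and all were single-base substitutions on autosomes. Mouse 2 held Scn8a, Pcdhb5 and Slc24a2, which were 3 of its 8 calls, and mouse 4 held Col5a2 and Cyp2j6, which were 2 of its 9. Mice 1, 3 and 5 had 0 calls in these genes. Scn8a, Pcdhb5, Col5a2 and Cyp2j6 were called in both AThi and ATlo cells, and Slc24a2 in AThi cells alone. Calls in both fractions were thus 4 of 5 here, where 43.8% of all 32 calls were in both. Of the 5 calls, 3 changed the protein and 2 were intronic, and over all 32 calls 11 changed the protein and 15 were intronic. Positions below are as deposited by the authors, with a genome build that the sources used here do not state.

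Scn8a encodes a pore-forming subunit of the voltage-gated sodium channels that carry the action potential in neurons. Its call in mouse 2 lay at position 100957114 of chromosome 15, where G was read as A. In the coding sequence, counted from the start codon, the change was G481A, in exon 3 or 4 by transcript, and in the protein V161M. It fell on base 1 of the codon, and by the genetic code only GTG to ATG gives this exchange. The allele fraction was 0.518 at 129 reads in AThi cells (95% Wilson interval 0.434 to 0.604) and 0.525 at 152 reads in ATlo cells (0.447 to 0.604). Both intervals contained 0.5 and nearly coincided. Tail DNA had a fraction of 0.015 at 120 reads, or about 2 alternate reads. Wilson intervals here cover counting error only.

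Pcdhb5 belongs to the beta cluster of protocadherins, adhesion proteins best known for giving neurons individual surface identities. Its call in mouse 2, at position 37322402 of chromosome 18, read G as T in exon 1 (coding change G1834T) and put a stop at residue 612 (G612X). It was the only stop gained among the 32 calls. It also had the highest depths of the 44 entries, with 371 reads in AThi cells and 277 in ATlo cells. The median over the calls of that mouse, Pcdhb5 included, was 85 reads in AThi (7 entries) and 152 in ATlo (3 entries). The ATlo median was the depth of Scn8a. The allele fraction was 0.479 in AThi cells (interval 0.429 to 0.531) and 0.491 in ATlo cells (0.433 to 0.550), so these were the narrowest intervals of the 5 genes, and both contained 0.5. Tail DNA stood at 0.038 of 280 reads, about 11 alternate reads (interval 0.0221 to 0.0690), the largest number of alternate tail reads among the 44 entries. By the RefSeq gene table the site also lies within the spans of Gm37013, Gm38666 and Gm38667, if its position is of that table's build. In the same table Pcdhb5 lies between Pcdhb4 and Pcdhb6 in a cluster of 22 beta genes of similar sequence. Whether reads of those copies were aligned here was not tested.

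Slc24a2 encodes a sodium/calcium exchanger that also moves potassium, known from cone photoreceptors and brain. Its intronic call in mouse 2, at position 87032152 of chromosome 4, read A as C. In AThi cells the allele fraction was 0.203 at 33 reads, about 7 alternate reads (interval 0.107 to 0.378), and no ATlo value was listed. The list gives neither depth nor fraction where a library has no call, so absence from ATlo cells was not measured. Tail DNA had 0.037 at 27 reads, about 1 alternate read, with an interval of 0.00657 to 0.183 that overlapped the interval of AThi cells. Such an overlap with tail occurred in 1 of the 9 entries, against 36.4% of all 44 entries. It went with calls made in a single fraction, where 15 of 17 autosomal entries had it. Among calls made in both fractions it occurred in 0 of the 8 entries of the other 4 genes and in 0 of 12 other autosomal entries. Depth also differed between these sets, and lower depth widens both intervals. Median HSC and tail depths were 27 and 29 reads in the 17 entries, 116 and 117.5 in the 8, and 79 and 70.5 in the 12. Whether depth accounts for the contrast was not tested. Slc24a2 was the lowest of the 5 genes in fraction, depth and call quality.

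Col5a2 encodes a chain of type V collagen, which sets the width of collagen fibrils in connective tissue. Its intronic call in mouse 4, at position 45403072 of chromosome 1, read A as G. The allele fraction was 0.488 at 78 reads in AThi cells (interval 0.379 to 0.596) and 0.538 at 76 reads in ATlo cells (0.428 to 0.647). Tail DNA had 0.015 at 70 reads, about 1 alternate read. The ATlo value was the highest fraction of the 9 entries, and its interval, like that of AThi cells, contained 0.5.

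Cyp2j6 encodes a cytochrome P450 of a subfamily that oxidises fatty acids. Its call in mouse 4, at position 96536140 of chromosome 4, read T as C, which on the coding strand is A379G in exon 3 and exchanges isoleucine for valine in the protein (I127V). It too fell on base 1 of its codon, as in Scn8a and Pcdhb5. The allele fraction was 0.449 at 103 reads in AThi cells (interval 0.354 to 0.543) and 0.474 at 91 reads in ATlo cells (0.373 to 0.574). These were the lowest fractions of the 4 genes called in both, and 0.5 lay within both intervals. The same tail library, at 115 reads, was given a fraction of 0.002 (0 alternate reads) beside the AThi value and 0.011 (about 1 read) beside the ATlo value. Cyp2j6 lies between Cyp2j8 and Cyp2j9 in the RefSeq gene table, among 7 Cyp2j genes, and reads of these copies were not examined either.

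**Figure D1:**
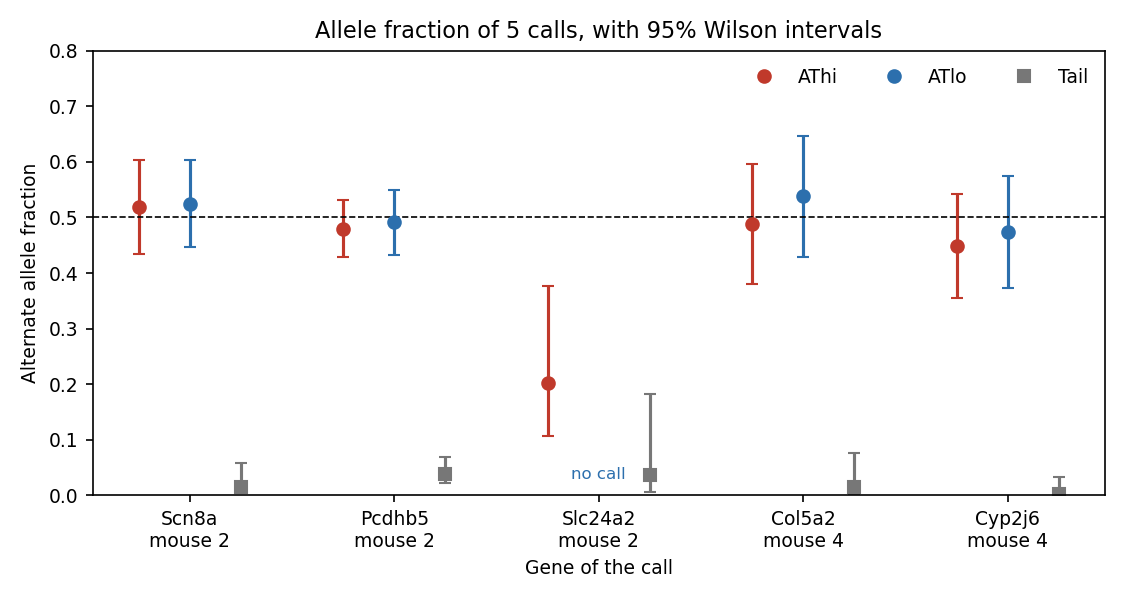
Alternate allele fraction (vertical axis, no unit) of the 5 calls in AThi HSCs (red), ATlo HSCs (blue) and tail (grey squares, the estimate listed with the AThi entry), with 95% Wilson intervals and a dashed line at 0.5. The 8 HSC values of Scn8a, Pcdhb5, Col5a2 and Cyp2j6 lie between 0.449 and 0.538 with intervals that contain 0.5, Slc24a2 lies at 0.203, and all 5 tail values are at most 0.038.

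Set against 0.5, the intervals of the 9 entries thus excluded it once, in Slc24a2. Over all 44 entries 54.5% excluded it, but these include all 7 entries on chromosome X. There the value to compare with depends on the sex of the mouse, which is not stated here, and need not be 0.5. Among the 37 autosomal entries 17 excluded 0.5, and among the 12 entries of other autosomal calls made in both fractions 6 did. Of the 17 autosomal entries called in a single fraction, Slc24a2 among them, 11 excluded 0.5. The members had been proposed with these fractions known, so the contrast describes them and has no test. With the reads of both HSC libraries pooled (a step chosen after seeing the data) the fraction was 0.523 in Scn8a (281 reads, interval 0.465 to 0.581) and 0.485 in Pcdhb5 (648 reads, interval 0.446 to 0.523). In mouse 4 it was 0.513 in Col5a2 (154 reads, interval 0.435 to 0.591) and 0.459 in Cyp2j6 (194 reads, interval 0.390 to 0.529). Pooling narrowed the intervals, and 0 of these 4 excluded 0.5, as against 2 of the other 6 autosomal calls made in both fractions. An interval that contains 0.5 still allows fractions as far off as its ends, for Pcdhb5 0.446 to 0.523.

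The next comparison asked whether these mutations were carried to a different extent by AThi and ATlo cells of the same mouse. The largest of the 4 differences was in Col5a2, where AThi minus ATlo was -0.050 (95% Newcombe interval -0.204 to 0.103). It was -0.025 in Cyp2j6 (interval -0.163 to 0.112), -0.012 in Pcdhb5 (-0.0885 to 0.0662) and -0.007 in Scn8a (-0.123 to 0.109). All 4 intervals contained 0, and those of Col5a2, Cyp2j6 and Scn8a allow a difference above 0.1 in either direction. These fractions were known when the genes were proposed, so the test that follows describes them and is no independent evidence. By Fisher's exact test on alternate and remaining reads, two-sided, with Benjamini-Hochberg adjustment over the 13 shared calls with values, 0 of the 4 passed an adjusted p of 0.05, and 0% of the 13 did. At an unadjusted p under 0.05 the count of the 4 was again 0 by Fisher's exact test, and 0 when a continuity-corrected chi-squared test took its place. Each test compares 2 libraries of 1 animal.

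The sign was the same in these genes, with the fraction higher in ATlo cells in 4 of 4, where 61.5% of the 13 shared calls were higher in ATlo. Among the other 9 shared calls, 4 were higher in ATlo. The median difference of the 4 genes was -0.0185, against -0.007 over all 13, 0.007 over the other 9 and 0.0595 over the other 6 autosomal calls. Of those 6, 5 were higher in AThi cells, and 4 of the 6 came from mouse 1, which had no call in the 5 genes. The remaining pair shared a mouse with the 5 genes and went opposite ways, with Eml2 of mouse 2 at -0.238 and a call of mouse 4 at 0.21. None of these contrasts was tested, and calls of a mouse share their libraries. The mean difference was -0.0095 over the 2 calls of mouse 2 and -0.0375 over the 2 of mouse 4.

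**Figure D2:**
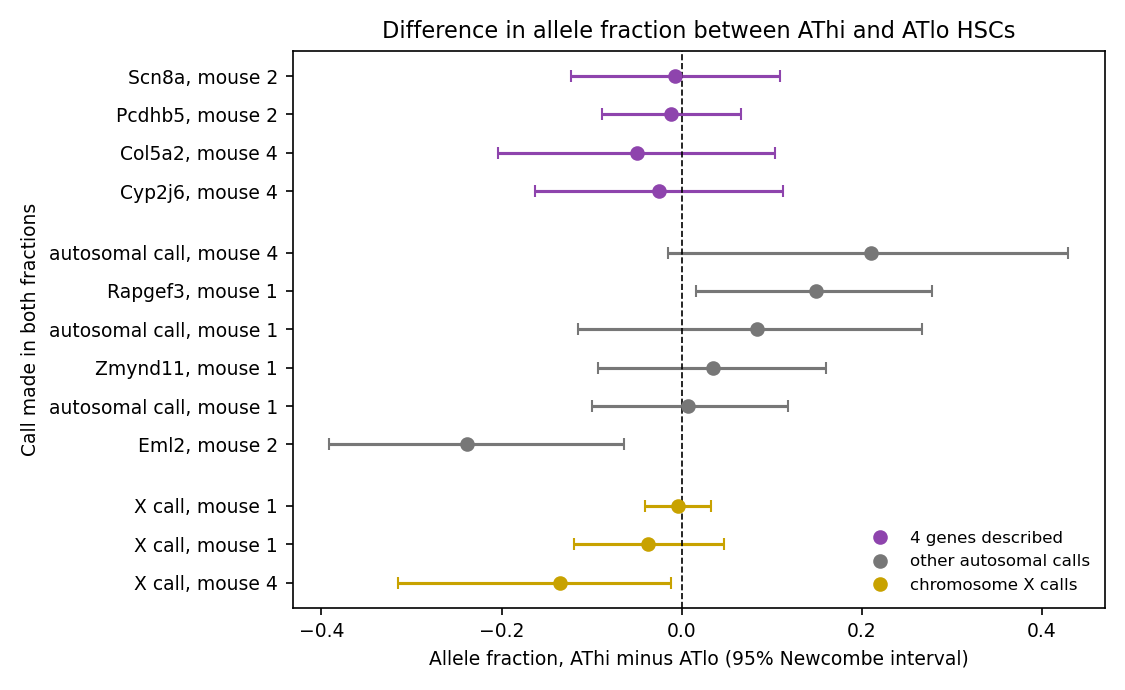
Allele fraction in AThi minus ATlo HSCs (horizontal axis, no unit) for the 13 calls with values in both fractions, with 95% Newcombe intervals; Scn8a, Pcdhb5, Col5a2 and Cyp2j6 are purple, other autosomal calls grey and chromosome X calls yellow. The 4 purple points lie between -0.050 and -0.007 with intervals across 0, while Eml2 of mouse 2 lies at -0.238.

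The pair of fractions most like the median pair of the 4 genes (0.4835 in AThi, 0.508 in ATlo) was sought among the other 6 autosomal calls made in both fractions. By Euclidean distance in the 2 fractions the nearest was the synonymous call in Zmynd11, a histone reader gene, at 0.461 in AThi and 0.426 in ATlo cells of mouse 1 (distance 0.0850). Rapgef3, a cAMP-activated exchange factor gene, followed at 0.505 in AThi and 0.356 in ATlo cells of mouse 1 (0.154). Eml2, a microtubule-associated protein gene, came next at 0.348 in AThi and 0.586 in ATlo cells of mouse 2 (0.156). The 4 genes themselves lay 0.0176 (Pcdhb5) to 0.0484 (Cyp2j6) from their own median pair, which their values set. The order of Rapgef3 and Eml2 rests on a difference in distance far smaller than the intervals of their fractions.

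Call quality, a score of the deposited list whose scale is not stated, followed the number of alternate reads. Pcdhb5 had 530.6 with about 178 alternate reads in AThi cells and 403.1 with about 136 in ATlo cells, ranks 3 and 4 of the 44 entries. Scn8a had 185.2 in AThi cells and 223.9 in ATlo cells. In mouse 4, Cyp2j6 had 129.7 in AThi and 121.8 in ATlo cells, and Col5a2 had 112.3 in AThi and 119.6 in ATlo cells. Slc24a2 had 8.1, rank 42 of 44. Per alternate read, the 8 entries of the 4 shared genes had a quality of 2.76 to 2.98 and the entry of Slc24a2 had 1.16. The median of all 44 entries was 2.82 and that of the 17 autosomal entries called in a single fraction was 1.64. The 12 entries of other autosomal calls made in both fractions had a median of 2.85 (1.76 to 3.01).

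**Figure D3:**
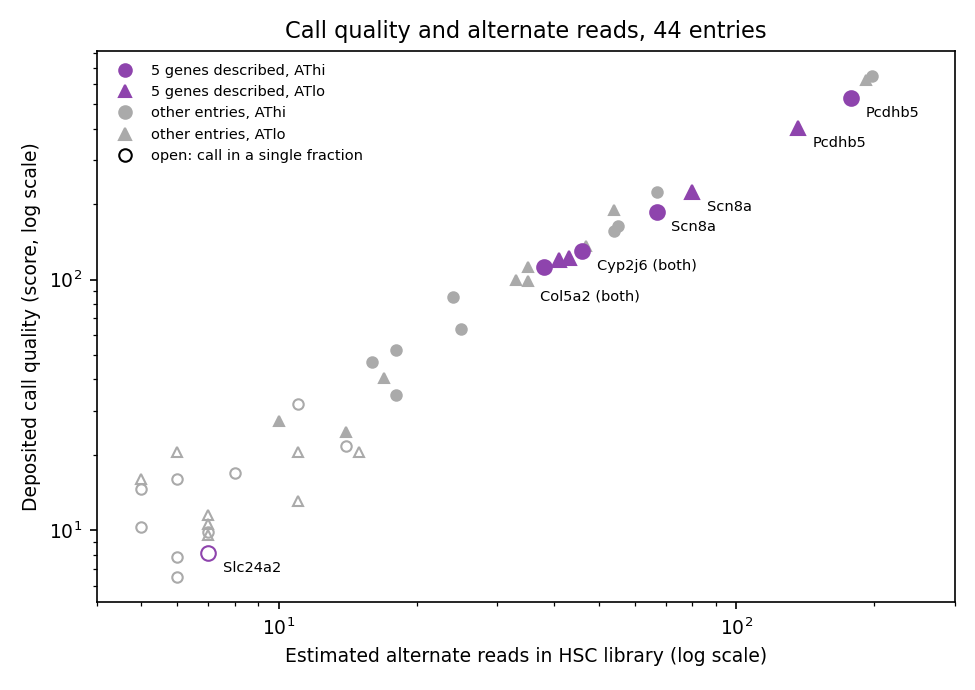
Deposited call quality (vertical axis, score, log scale) against estimated alternate reads in the HSC library (horizontal axis, log scale) for 44 entries; circles are AThi, triangles ATlo, purple the 5 genes described, and open symbols calls made in a single fraction. Pcdhb5 (178 and 136 reads) lies near the top, Scn8a, Cyp2j6 and Col5a2 between 38 and 80 reads, and Slc24a2 at 7 reads among the open symbols.

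The kind of base change also set Slc24a2 beside other calls. Folded to the pyrimidine of the base pair, its change is T>G, a class of 5 calls (Slc24a2, Zfp987, Tspyl2, Dgka and Terf2). All 5 were made in a single fraction, in 3 mice, at fractions of 0.079 to 0.261 and qualities of 8.1 to 20.6. The other changes were C>T in Scn8a, C>A in Pcdhb5, and T>C in Col5a2 and Cyp2j6. C>T had 12 of the 31 calls with values, 9 of them in both fractions. T>C had 4 calls, of which Col5a2 and Cyp2j6 were the 2 made in both fractions. C>A also had 4, with 2 in both fractions. T>G was not alone in lying in a single fraction, as 18 of all 32 calls did so, among them all 4 insertions and deletions with values and the only calls of the classes C>G and T>A.

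In tail DNA the estimated fraction of the 9 entries ran from 0.002 to 0.038, with a median of 0.015 (0.0155 over all 44). At least 1 alternate read was estimated in tail for 8 of the 9 entries, where 77.3% of all 44 had one. These reads are depth times the caller's estimated fraction and were not counted. The estimate was above 0 in all 9 entries, and for Cyp2j6 it gave 1 tail library both 0.002 and 0.011. Where the estimate came to 0 to 2 reads, whether tail held any mutant read was therefore not measured. Pcdhb5 stood apart, at about 11 of 280 tail reads and an interval of 0.0221 to 0.0690. Where those reads came from was not tested. The 2 entries of a shared call rest on the same tail library and are not independent, and the caller used the tail library in making each call. In the column for dbSNP build 142, a catalogue of known variants, 0 of the 9 entries had a name, and 1 of all 44 did.

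The families of the 5 genes were searched for further calls. There were 0 in the other 8 sodium channel alpha subunit genes and 0 in the 4 beta subunit genes. There were also 0 in the other 56 clustered protocadherin genes, which include the remaining beta genes. The list of potassium-dependent sodium/calcium exchangers also held a relative, Slc8b1, and its other 5 genes had 0. So did the other 10 fibrillar collagen genes, among them Col3a1, the neighbour of Col5a2, and the other 6 Cyp2j genes. Which of these genes were covered by reads was not analysed here, so these zeros are counts of calls and no measure of mutation.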

How the data were processed

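DNA of HSC pellets and tails was exome-captured and sequenced as paired ends by either of 2 services, per the labels' protocols, and the labels do not say which service took which mouse. Per the submitters' processing notes, Bowtie2 was used. The workbook is named for Mutect2, and its columns, per the file headers, pair every HSC library with its own tail library. Versions, filters and genome build: not given in the sources used here. The authors deposited depth as read counts, allele fraction as the caller's estimate, and call quality as a score of unstated scale. Depth times fraction was whole (within 0.0005 of the fraction) in 1 of 9 entries.

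Alternate reads were depth times fraction, rounded. Wilson and Newcombe intervals were at 95%. Shared calls were tested by Fisher's exact test, with Benjamini-Hochberg adjustment, on all shared calls with values, and the test was checked on simulated data. AThi and ATlo libraries with the same number come from 1 animal, so each test is within a mouse. The 9 entries were equal in the list of all calls and the list of each mouse (9 of 9). All 5 gene names matched RefSeq of GRCm38.p6, used for names, neighbours and the genes that span a site. The last use takes the deposited positions to be of that build, which was not stated. Of 46 entries, 2 have values not analysed here. The members and gene lists were chosen with earlier results of these data known. Named genes were the members and the 3 nearest calls; Zfp987, Tspyl2, Dgka and Terf2 were named after their values were seen. Alternatives were other intervals, tests, adjustments, rounding, depth and tail minimums, an expected fraction of 0.45 and each mouse left out. Computations used SciPy 1.17.1 with NumPy 2.4.6 under Python 3.11.15, and plots Matplotlib 3.10.9.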

Additional observations from a re-analysis of the deposited data

How the results depend on the processing

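The number of the 9 entries whose interval excluded 0.5 was 1 with Clopper-Pearson or 99% intervals, with alternate reads rounded up or down and at an expected fraction of 0.45. It was 0 at a depth of at least 50, which removes Slc24a2, and ran from 0 (without mouse 2, the mouse of Slc24a2) to 1 with each mouse left out. The number of shared calls that differed between AThi and ATlo cells was 0 in all 10 alternatives, among them adjustment within each mouse. The median AThi minus ATlo difference of -0.0185 was -0.0235 as a mean and -0.0235 with the mouse as replicate block, and ran from -0.0375 (without mouse 2) to -0.0095 (without mouse 4). Entries with tail signal, 8 of 9, were 4 at a minimum of 2 tail reads (Scn8a and Pcdhb5), 3 at a tail fraction of at least 0.02 (Pcdhb5 and Slc24a2) and 9 at a fraction above 0. They ran from 3 of 4 without mouse 2 to 8 of 9 without mouse 1, 3 or 5, with 5 of 5 without mouse 4. Without mouse 2 or 4 the counts lose the entries of that mouse, and the median difference then is that of the other mouse. Depths of 33 to 371 reads set the widths of all intervals, and with 5 calls in 2 mice nothing here measures the spread between mice.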
